A study of Mus musculus with 10 samples.

Results

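Acta2, Tagln, Lum, Dcn, Postn, Thbs2, Fbn1, Lox, Loxl1 and Loxl2 are genes of the contractile myofibroblast and of the matrix that it lays down and crosslinks. They were found by their symbols in a table of 59408 gene models from mouse liver RNA, of which 23454 carry a symbol. All 10 were in the table, each as 1 gene model, and all 10 had values high enough to be tested among 18390 models.

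Myofibroblasts are contractile cells that appear in injured liver, mainly from hepatic stellate cells and, around bile ducts, from portal fibroblasts. They assemble smooth muscle actin into stress fibres and secrete collagens together with proteoglycans, matricellular proteins and fibrillin microfibrils that organise the fibres. Lysyl oxidases are copper enzymes that oxidise lysines of collagen and elastin outside the cell, which lets neighbouring chains form covalent crosslinks and makes scar tissue stiffer and harder to degrade.

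The livers came from wild-type C57BL/6 mice and were collected at day 35. The 3 PBC model mice, a model of autoimmune primary biliary cholangitis, received 100 µg of a 2-octynoic acid and BSA conjugate into the peritoneum, with complete Freund's adjuvant at day 0 and with incomplete Freund's adjuvant at days 14 and 28. With the first 2 of these injections they also received 2 µg of α-galactosylceramide, a glycolipid that activates natural killer T cells, into a vein. The 3 PSC model mice stand for primary sclerosing cholangitis without autoimmunity. They ate food with 0.089% DDC, a compound that injures bile ducts, for 2 weeks, then had 1 week of normal food and 1 more week of DDC. By these times the DDC food ended before the livers were taken. The 4 control mice were untreated, so they had no adjuvant, glycolipid or DDC food. Effects of adjuvant, antigen and glycolipid in PBC livers cannot be told apart. Each library is 1 liver from a separate mouse, sequenced as paired reads of 75 bases from stranded poly(A) libraries.

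Values are the authors' DESeq2-normalised reads per gene model, and the livers of a group are given in the order of their mouse numbers, which are 7, 8 and 9 for PBC, 11, 13 and 14 for PSC and 1 to 4 for control. The depth recovered from the values was between 38272053 and 95422289 reads, lowest in control 3 and highest in PSC 11. The hepatocyte transcript Alb was between 3134830 and 8634921 in all 10 libraries. The livers were whole tissue, so more cells of a type and more RNA per cell cannot be told apart. A gene is called here where the Benjamini-Hochberg adjusted p of limma over the 18390 tested models was under 0.05, and fold changes are on the log2(value + 1) scale.

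In PSC livers 7 of the 10 genes rose above control livers and none fell. They were Acta2, Tagln, Lum, Thbs2, Fbn1, Loxl1 and Loxl2. Over all tested models 8.25% were called higher and 6.48% lower in PSC livers. All 3 PSC livers lay above all 4 control livers for 9 of the 10 genes, every one except Dcn, where 15.9% of all tested models did so. The median log2 change of the 10 genes was 1.65, beside 0.06 over all tested models.

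In PBC livers Loxl1 rose and none of the 10 fell, where 7.6% of all tested models were called higher and 2.34% lower than in control livers. All 3 PBC livers lay above all control livers for 1 of the 10 genes, Thbs2, which was not called, where 12.7% of all models did so. The median log2 change of the 10 genes in PBC livers was 0.44, beside 0.01 over all tested models. The PBC and PSC comparisons share the same 4 control livers.

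Set directly against each other, PBC livers had less Lum and less Thbs2 than PSC livers, and none of the 10 was called higher, where 1.13% of all tested models were called lower and 1.11% higher. All 3 PBC livers lay below all 3 PSC livers for 6 of the 10 genes, Tagln, Lum, Thbs2, Fbn1, Loxl1 and Loxl2, where 12.6% of all models did so. The median log2 difference of the 10 genes was -1.21, beside 0.02 over all tested models. DESeq2 on the recovered reads also called Acta2 (adjusted p = 0.0199) and Tagln (adjusted p = 0.0147) lower in PBC than in PSC livers. It called 623 of the 18390 models lower in this comparison, where limma called 208.

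**Figure D1:**
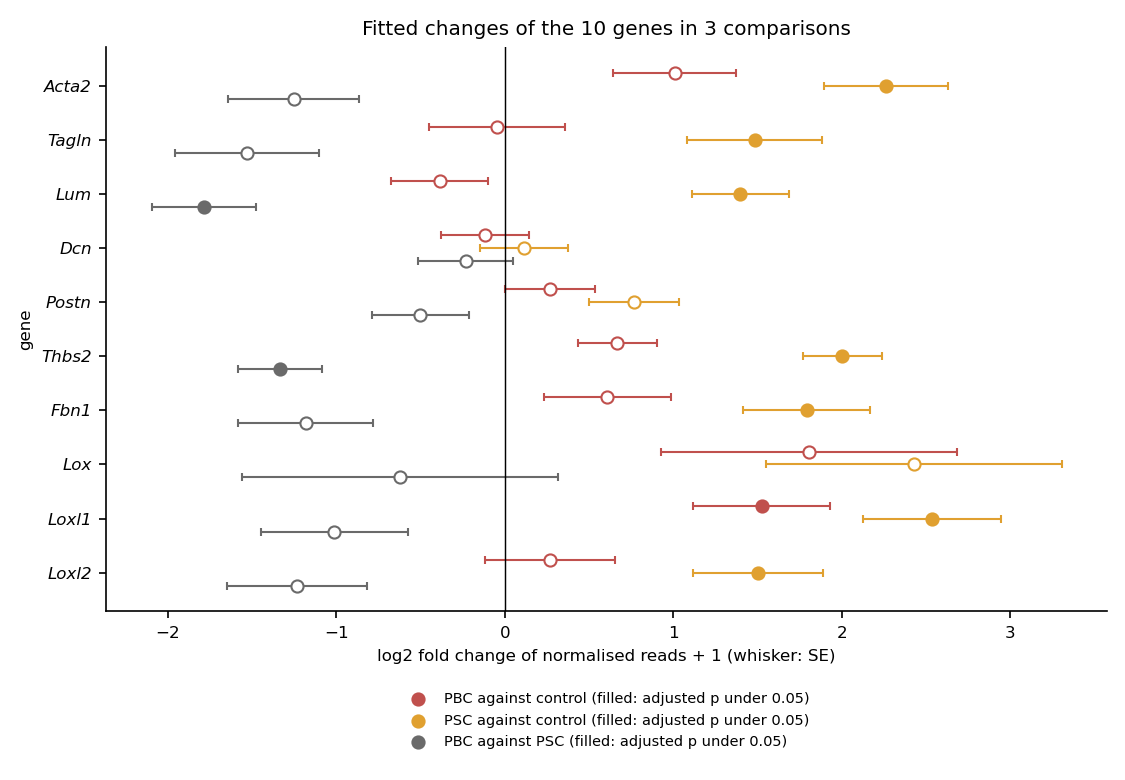
Log2 fold change of normalised reads + 1 (x axis) for each of the 10 genes (y axis) in PBC against control, PSC against control and PBC against PSC livers, with whiskers of 1 SE. Filled points have an adjusted p under 0.05; PSC against control has 7 filled points, PBC against control 1 (Loxl1) and PBC against PSC 2 (Lum and Thbs2).

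Acta2 encodes smooth muscle α-actin, the usual marker of the activated myofibroblast, which vascular smooth muscle also expresses. Its model spans chr19:34240336-34255373 of mm10. Acta2 had 495, 295 and 209.5 normalised reads in PBC livers, 838.5, 422 and 1177 in PSC livers, and 126, 139.9, 212.0 and 154 in control livers. Every PSC liver was above every control liver, while PBC 9 lay just under control 3, the highest control. Acta2 rose in PSC livers by 2.26 on the log2 scale (SE 0.37, adjusted p = 0.00173). The difference in PBC livers was 1.01 (SE 0.37, adjusted p = 0.0964), and between PBC and PSC livers it was -1.25 (SE 0.39, adjusted p = 0.12). In PBC livers the call depended on the method, since DESeq2 on the recovered reads gave an adjusted p of 0.0463 and limma with quality weights per library 0.0386. Both also called more models in this comparison, 2578 with DESeq2 and 4228 with quality weights, where limma without weights called 1828. Control 1, the lowest control for Acta2, had a quality weight of 4.01, and controls 2, 3 and 4 had 0.706, 0.41 and 0.621.

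The 250 bases upstream of the Acta2 start are shown because serum response factor controls smooth muscle genes through CArG boxes, and TEAD factors bind GGAATG. They are from RefSeq (GRCm38.p6), minus strand, chr19:34255374-34255623. Capitals mark the TEAD letters, 146 bases before the start, and a pair of CArG-like stretches that differ from the full motif by at most 1 base in their core, 84 and 34 bases before it. The full CArG box was searched for on both strands and did not occur in this window, while 1.47% of 32851 mouse promoter windows of that length hold it. The looser form, chosen after the full one gave no match, is in 8.59% of windows, and the TEAD letters GGAATG or CATTCC are in 12.6%.
Acta2 upstream: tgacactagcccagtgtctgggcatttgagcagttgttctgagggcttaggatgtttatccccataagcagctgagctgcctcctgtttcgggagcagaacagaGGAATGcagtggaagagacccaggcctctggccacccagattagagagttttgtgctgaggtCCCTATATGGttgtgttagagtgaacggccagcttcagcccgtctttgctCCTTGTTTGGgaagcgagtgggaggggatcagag

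Tagln encodes transgelin, an actin-binding protein of smooth muscle and myofibroblasts. It lies at chr9:45929628-45936058 and overlaps Pcsk7 on the opposite strand, so reads of the pair could be shared if the counting ignored strand. Tagln had 2442, 1334 and 1094 normalised reads in PBC livers, 3741.5, 3733 and 6156 in PSC livers, and 1869, 972, 3328.5 and 1023 in control livers. The PSC livers lay above all others, with control 3 the nearest to them, and the PBC livers were within the control range. Tagln rose in PSC livers by 1.48 (SE 0.40, adjusted p = 0.0269). The difference in PBC livers was -0.05 (SE 0.40, adjusted p = 0.957), and against PSC livers it was -1.53 (SE 0.43, adjusted p = 0.0857). Its PSC call was lost without PSC 11, PSC 13 or PSC 14, and without control 2 or control 4, with adjusted p between 0.0554 and 0.136. Pcsk7 itself was not called in PSC livers, with a log2 difference of -0.58 (SE 0.20, adjusted p = 0.0633).

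The ratio of both contractile genes varied between livers. There were 0.203, 0.221 and 0.192 Acta2 reads per Tagln read in PBC livers, 0.224, 0.113 and 0.191 in PSC livers, and 0.0672, 0.144, 0.0637 and 0.151 in control livers. All PBC livers lay above all control livers, while PSC 13 lay within the control range. The log2 difference of the ratio was 1.06 in PBC livers against control (2-sided exact permutation test, p = 0.0571, adjusted p = 0.171) and 0.79 in PSC livers (p = 0.229, adjusted p = 0.274). This ratio and 3 others were chosen after the values were seen, and the p-values are adjusted over 12 tests. The smallest p that 3 livers against 4 allow is 0.0571 and 3 against 3 is 0.1.

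Of 20 other tested contractile and smooth muscle genes, 4 rose and 1 fell in PSC livers, 4 rose in PBC livers, and none was called between the models. The median log2 change of the list was 0.63 in PSC livers and 0.46 in PBC livers. The intermediate filament gene Vim, which leukocytes also express, rose by 1.83 in PSC livers (SE 0.23, adjusted p = 0.000305) and by 1.26 in PBC livers (SE 0.23, adjusted p = 0.00437). Flna, an actin crosslinker, and Cnn2, a calponin found outside muscle, also rose in both models, by 1.14 and 1.07 in PSC livers and by 1.09 and 1.19 in PBC livers, and Tpm1 was the other gene that rose in PSC livers. Myh11, the myosin heavy chain of differentiated smooth muscle, had 318, 207 and 195 normalised reads in PBC livers, 127, 64.7 and 151 in PSC livers, and 38.9, 131, 84.3 and 83.3 in control livers. It rose in PBC livers (log2 1.58, SE 0.41, adjusted p = 0.0302) and was not called in PSC livers (0.47, SE 0.41, adjusted p = 0.484). Cald1, an actin and calmodulin-binding protein, fell by 1.29 in PSC livers (SE 0.36, adjusted p = 0.0316). It had 1522, 5079 and 1411 normalised reads in PBC livers, 1928, 2217 and 1433 in PSC livers, and 5411, 4195, 3724 and 4763 in control livers. PBC 7 and PBC 9 were thus below all control livers and PBC 8 was not, with a log2 difference of -1.01 in PBC livers (SE 0.36, adjusted p = 0.0931). The summed level of the list of 21 genes was between 21001 and 26336 in PBC livers, 24164 and 28143 in PSC livers, and 15391 and 18001 in control livers. Vim and Flna make up a large part of this sum and of its rise. Vim had a mean of 6348 normalised reads in PBC, 9433 in PSC and 2739 in control livers. For Flna the means were 4893, 5056 and 2303. The smooth muscle marker Cnn1 was at 0 in PBC 9 and in control 1. The part of smooth muscle in the Acta2 and Tagln values was not tested.

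**Figure D2:**
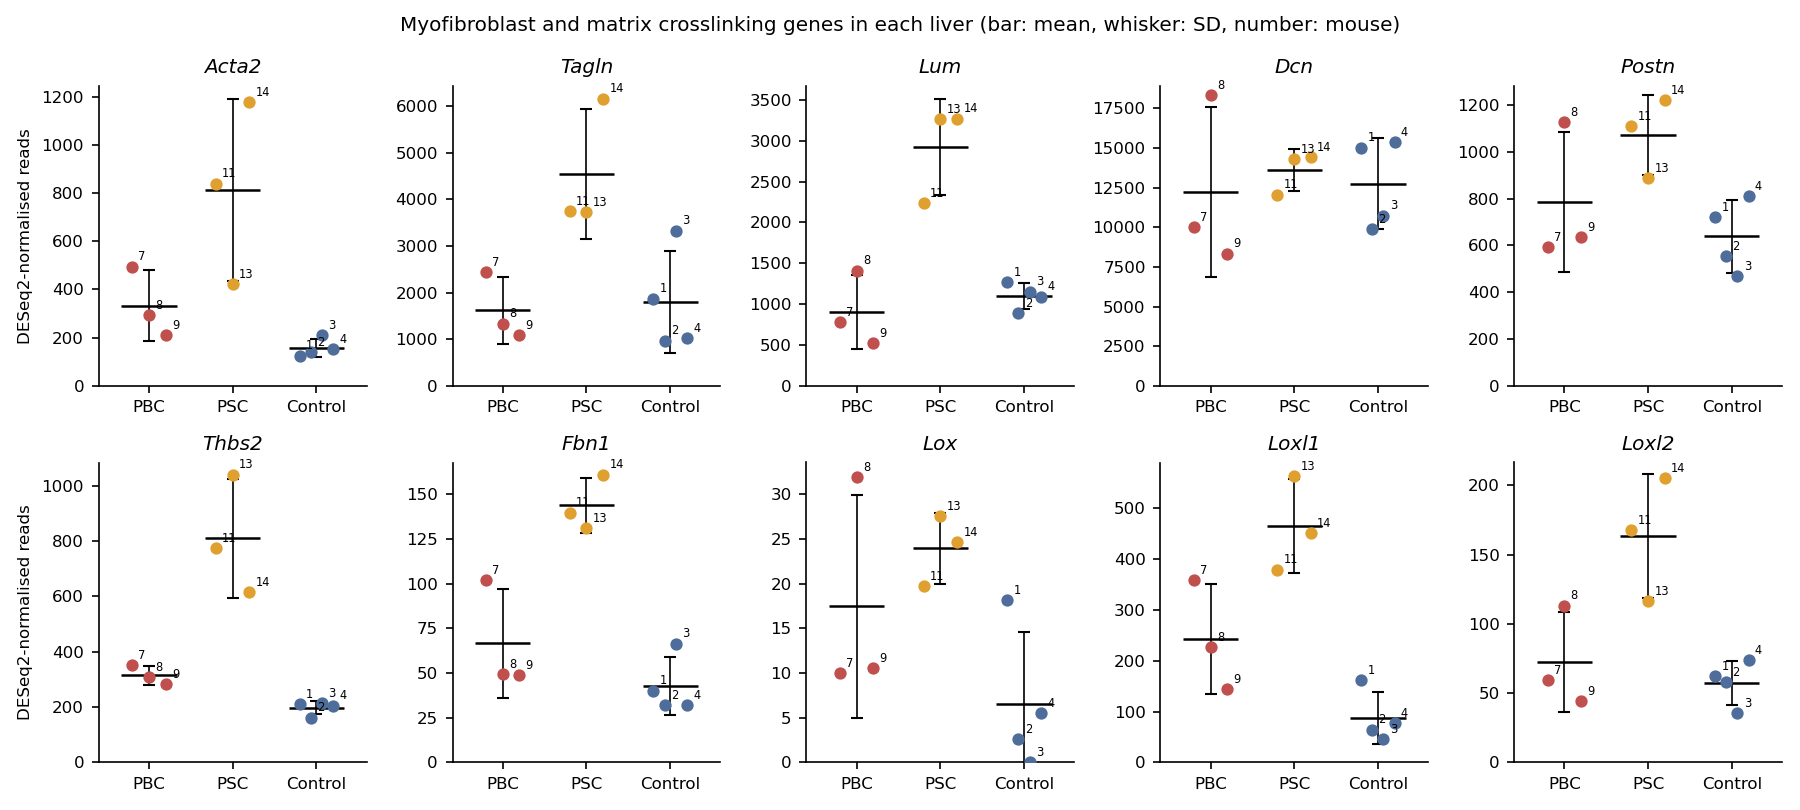
Normalised reads (y axis, linear, from 0) of each of the 10 genes in the 3 PBC, 3 PSC and 4 control livers, with the mouse number beside each point, a bar at the group mean and a whisker of 1 SD. The PSC points lie above all control points in every panel except Dcn, and PBC 8 is the highest PBC liver for Lum, Dcn, Postn, Lox and Loxl2.

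Lum and Dcn encode lumican and decorin, secreted proteoglycans with leucine-rich repeats that bind collagen and set the diameter and spacing of its fibrils. Decorin also binds TGF-β. The genes are neighbours on chromosome 10, Dcn at chr10:97479500-97518155 and Lum at chr10:97565501-97572703. Lum had 783, 1410.0 and 527 normalised reads in PBC livers, 2240, 3261 and 3272 in PSC livers, and 1267, 888, 1155 and 1094 in control livers. Every PSC liver was above every PBC and control liver, and PBC 7 and PBC 9 were below all 4 control livers while PBC 8 was above them. Lum rose in PSC livers by 1.40 (SE 0.29, adjusted p = 0.00722), and it was lower in PBC than in PSC livers by a log2 difference of -1.79 (SE 0.31, adjusted p = 0.00869). The call between the models was lost without PSC 13 or PSC 14. The difference between PBC and control livers was -0.39 (SE 0.29, adjusted p = 0.429). Without PBC 8 it became -0.76 with an adjusted p of 0.0451.

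Dcn had 10014, 18327 and 8335 normalised reads in PBC livers, 12050, 14275 and 14424 in PSC livers, and 15017, 9866, 10734 and 15370 in control livers. The groups overlapped throughout, and PBC livers held both the highest and the lowest value of all 10. The log2 difference was -0.12 in PBC livers (SE 0.26, adjusted p = 0.815), 0.11 in PSC livers (SE 0.26, adjusted p = 0.807) and -0.23 between PBC and PSC livers (SE 0.28, adjusted p = 0.675). In PSC livers Dcn spread least of the 10 genes, with a coefficient of variation of 9.79%.

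The ratio of these neighbouring genes was compared within each liver. There were 0.0782, 0.0769 and 0.0632 Lum reads per Dcn read in PBC livers, 0.186, 0.228 and 0.227 in PSC livers, and 0.0844, 0.0900, 0.108 and 0.0712 in control livers. All PSC livers lay above all others, and PBC and control livers overlapped. The log2 difference of the ratio was 1.28 in PSC livers against control, with the smallest p that an exact permutation test of 3 against 4 can give (p = 0.0571, adjusted p = 0.171). Between PBC and PSC livers it was -1.55 (exact permutation test, p = 0.1, adjusted p = 0.196), and between PBC and control livers -0.27 (p = 0.229, adjusted p = 0.274).

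Of 8 other tested proteoglycan genes of this family, 1 rose in PBC livers, and 2 rose and 1 fell in PSC livers. Bgn, which encodes biglycan, rose in both, by 0.86 in PBC livers (SE 0.21, adjusted p = 0.0216) and by 1.23 in PSC livers (SE 0.21, adjusted p = 0.00232). Omd, osteomodulin, had 9.95, 9.56 and 8.46 normalised reads in PBC livers, 101, 48.5 and 75.6 in PSC livers, and 22.0, 17.97, 20.4 and 38.9 in control livers. It rose in PSC livers (log2 1.56, SE 0.45, adjusted p = 0.0342) and was the 1 list gene lower in PBC than in PSC livers (-2.82, SE 0.48, adjusted p = 0.00776). The Omd values in PBC livers are a few reads per library, so the size of that difference is uncertain. Ogn, which encodes osteoglycin, fell by 2.396 in PSC livers (SE 0.76, adjusted p = 0.0498). The median log2 change of the list was -0.72 in PBC livers and 0.19 in PSC livers.

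**Figure D3:**
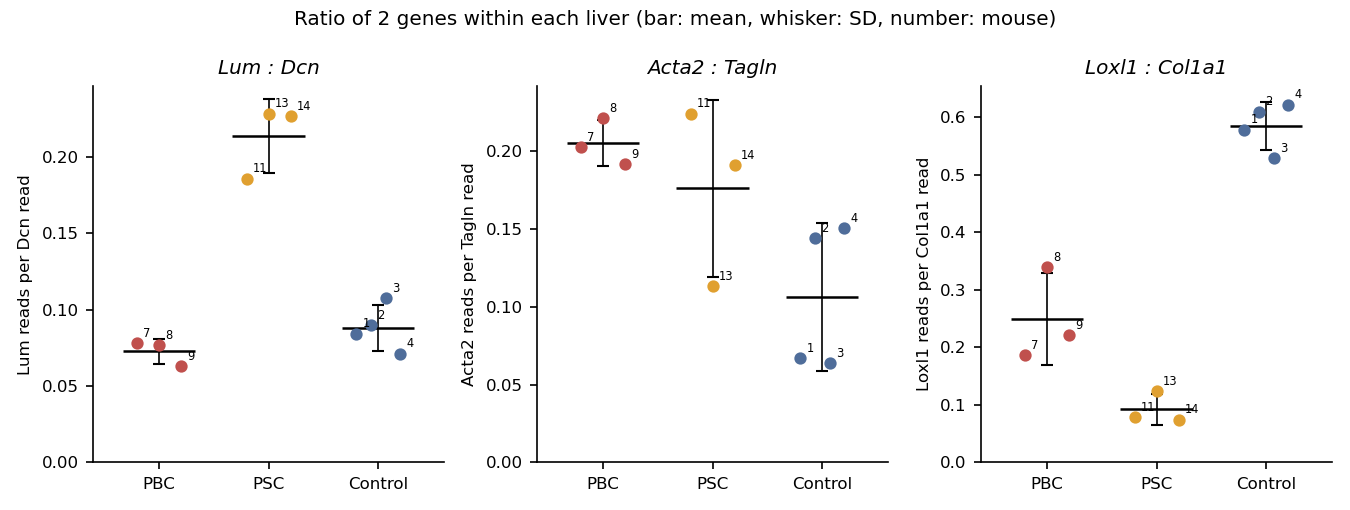
Ratio of normalised reads of 2 genes within each liver (y axis, linear, from 0) for Lum per Dcn, Acta2 per Tagln and Loxl1 per Col1a1 in 3 PBC, 3 PSC and 4 control livers, with mouse numbers, a bar at the mean and a whisker of 1 SD. Lum per Dcn was highest in the PSC livers (0.186 to 0.228), and Loxl1 per Col1a1 was lower in every PBC and PSC liver than in every control liver.

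Thbs2 and Postn encode thrombospondin 2 and periostin, matricellular proteins, which act on cells and fibres without being structural. Periostin binds collagen and helps its crosslinking by recruiting the procollagen protease BMP1, and thrombospondin 2 clears matrix metalloproteinases and limits angiogenesis. Thbs2, at chr17:14665500-14694262, had 351, 309 and 283.5 normalised reads in PBC livers, 776, 1040.0 and 615 in PSC livers, and 209.8, 162, 215 and 205.5 in control livers. The 3 groups did not overlap at all, with PSC livers highest and PBC livers between PSC and control livers. Thbs2 rose in PSC livers by 2.00 (SE 0.23, adjusted p = 0.000166), the smallest adjusted p of the 10 genes. It was lower in PBC than in PSC livers by a log2 difference of -1.33 (SE 0.25, adjusted p = 0.0143), a call that was lost without PSC 11 or PSC 13. The difference between PBC and control livers was 0.67 (SE 0.23, adjusted p = 0.0858), and it was not called under any of 20 alternatives.

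Postn, at chr3:54361107-54391041, had 592, 1128 and 635 normalised reads in PBC livers, 1109.6, 886 and 1221 in PSC livers, and 721.5, 553, 470.0 and 809 in control livers. The PSC livers lay above the control livers, and PBC 8 lay among the PSC livers while PBC 7 and PBC 9 lay within the control range. The log2 difference was 0.77 in PSC livers (SE 0.27, adjusted p = 0.0704), 0.27 in PBC livers (SE 0.27, adjusted p = 0.564) and -0.50 between PBC and PSC livers (SE 0.29, adjusted p = 0.365). Without PBC 8, which entered the estimate of the spread, the adjusted p in PSC livers was 0.0273.

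The upstream 250 bases of Thbs2 (minus strand, chr17:14694263-14694512) and of Postn at the start that its gene model uses (plus strand, chr3:54360857-54361106) are shown to set these matricellular genes beside Acta2. The same motifs were searched for on both strands. Capitals mark TATAAA, which is 26 bases before the Postn start, and TTTATA, the same letters on the other strand, 126 bases before the Thbs2 start. Of all mouse promoter windows of that length 12.4% hold these letters. Neither window holds a CArG box, in full or with 1 core mismatch, the TEAD letters or an AP-1 site (TGAGTCA or TGACTCA, in 4.46% of all windows). RefSeq's table held promoters for 4 of the 10 genes (Acta2, Postn, Thbs2 and Fbn1), and it held none for Tagln, Lum, Dcn, Lox, Loxl1 and Loxl2.
Thbs2 upstream: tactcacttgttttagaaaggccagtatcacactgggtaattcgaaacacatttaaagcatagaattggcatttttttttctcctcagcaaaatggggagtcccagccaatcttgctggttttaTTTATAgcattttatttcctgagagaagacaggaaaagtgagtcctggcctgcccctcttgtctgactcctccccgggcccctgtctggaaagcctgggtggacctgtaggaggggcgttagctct
Postn upstream: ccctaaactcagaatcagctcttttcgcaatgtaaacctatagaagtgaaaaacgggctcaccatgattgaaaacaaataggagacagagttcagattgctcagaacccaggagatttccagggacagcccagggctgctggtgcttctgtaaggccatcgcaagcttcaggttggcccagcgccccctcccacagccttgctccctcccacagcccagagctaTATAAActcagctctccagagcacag

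Of 14 other tested matricellular genes, 7 rose in PSC livers, 4 rose in PBC livers, and 4 were lower in PBC than in PSC livers. None was called the other way. Spp1, osteopontin, which bile duct cells and macrophages make, rose by 3.04 in PSC livers (SE 0.25, adjusted p = 8.98e-06) and was lower in PBC than in PSC livers by a log2 difference of -2.72 (SE 0.27, adjusted p = 0.000299). Sparc, a collagen-binding protein, rose by 1.51 in PSC livers (SE 0.26, adjusted p = 0.00254) and differed by -0.05 in PBC livers (SE 0.26, adjusted p = 0.927). Thbs1, a relative of Thbs2 that activates latent TGF-β, rose by 2.61 in PBC livers (SE 0.40, adjusted p = 0.00146) and by 2.89 in PSC livers (SE 0.40, adjusted p = 0.000624). Its normalised reads were 47.25, 90.8 and 65.6 in PBC, 75.0, 76.0 and 88.7 in PSC, and 7.77, 11.55, 7.66 and 13.9 in control livers. The Thbs1 control values are low, so the size of its rise is uncertain. Wisp2 rose by 1.91 in PBC livers (SE 0.35, adjusted p = 0.00449) and by 4.18 in PSC livers (SE 0.35, adjusted p = 9.71e-06). Fn1 encodes fibronectin, counted among these 14 genes though it is also a structural protein. It rose by 1.44 in PBC livers (SE 0.29, adjusted p = 0.00791) and was not called in PSC livers (0.81, SE 0.29, adjusted p = 0.0789). Its mean was 65982 normalised reads in PBC, 42408 in PSC and 26211 in control livers, and it was not called between the models (adjusted p = 0.293). Thbs4 had 54.7, 25.5 and 33.9 normalised reads in PBC livers, 0, 6.47 and 9.86 in PSC livers, and 0 reads in all 4 control livers. It was called in PBC livers (adjusted p = 0.0042), at least 33.7-fold higher than control when control is set to 3 reads over the group. Thbs4 reached the filter's value of 10 only in the 3 PBC livers, so it was tested only through the group where it is high. Its call, among the 4 in PBC livers, therefore carries little weight. The cholangiocyte markers summed to between 54658 and 95450 normalised reads in PSC livers, 10720 and 14346 in PBC livers and 8236 and 13550 in control livers, with Cftr at 0 in some livers. Spp1 is in both lists and makes up most of that sum, and the part of bile duct cells in the matricellular values was not tested.

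Fbn1 encodes fibrillin 1, the backbone of the microfibrils that carry elastin and hold latent TGF-β in the matrix. At chr2:125300594-125507993 it is a gene model of 207.4 kb. Fbn1 had 102, 49.4 and 48.7 normalised reads in PBC livers, 139.8, 131 and 161 in PSC livers, and 40.2, 32.1, 66.4 and 31.9 in control livers. Every PSC liver was above every PBC and control liver, and PBC 8 and PBC 9 were below control 3. Fbn1 rose in PSC livers by 1.79 (SE 0.38, adjusted p = 0.00785), a call that was lost without PSC 14 (adjusted p = 0.0509). The difference was 0.61 in PBC livers (SE 0.38, adjusted p = 0.327) and -1.18 between PBC and PSC livers (SE 0.40, adjusted p = 0.146). In the PBC livers these values rest on 41, 31 and 23 reads, in the PSC livers on 149, 81 and 98, and in the control livers on 31, 25, 26 and 23.

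Of 14 other tested microfibril and elastic fibre genes, 8 rose in PSC livers, 4 rose in PBC livers and none was called between PBC and PSC livers. Their median log2 change was 1.14 in PSC livers and 0.98 in PBC livers. Mfap2, a microfibril protein that binds fibrillin, had 89.5, 15.9 and 29.6 normalised reads in PBC livers, 103, 208.7 and 174 in PSC livers, and 13.0, 7.70, 10.2 and 11.1 in control livers. It rose in PSC livers by 3.79 (SE 0.53, adjusted p = 0.000675), and in PBC livers the difference was 1.67 (SE 0.53, adjusted p = 0.0643). The Mfap2 control values are low, so the size of these differences is uncertain. Ltbp2, which binds fibrillin, rose by 2.93 in PSC livers (SE 0.48, adjusted p = 0.00176). In PBC livers the Ltbp2 difference was 1.58 (SE 0.48, adjusted p = 0.0523), just over the threshold, and between PBC and PSC livers -1.35 (SE 0.51, adjusted p = 0.182). Eln, elastin, a substrate of the lysyl oxidases, rose by 1.33 in PBC livers (SE 0.34, adjusted p = 0.0279) and by 1.89 in PSC livers (SE 0.34, adjusted p = 0.0034). Emilin1 rose by 0.96 in PBC livers (SE 0.20, adjusted p = 0.00901) and by 1.18 in PSC livers (SE 0.20, adjusted p = 0.00226).

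Loxl1, the lysyl oxidase relative that is needed to maintain elastic fibres, was the 1 gene of the 10 that was called in both models. Its model is at chr9:58287723-58313212. Loxl1 had 358, 226 and 144 normalised reads in PBC livers, 379, 563 and 450.3 in PSC livers, and 162, 64.2, 46.0 and 77.8 in control livers. Every PSC liver was above every PBC and control liver, while PBC 9 was below control 1. Loxl1 rose in PSC livers by 2.54 (SE 0.41, adjusted p = 0.00168) and in PBC livers by 1.52 (SE 0.41, adjusted p = 0.0328). The log2 difference between PBC and PSC livers was -1.01 (SE 0.44, adjusted p = 0.236). Its PBC call was lost in 8 of 20 alternatives, among them leaving out control 2, control 3, control 4 or PSC 14, with adjusted p up to 0.138 when PBC 7 was left out.

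Loxl2 crosslinks collagen and is a secreted enzyme that has been studied as a target in liver fibrosis. Loxl2 had 59.7, 113 and 44.4 normalised reads in PBC livers, 168, 116 and 205 in PSC livers, and 62.2, 57.8, 35.8 and 73.6 in control livers. The PSC livers lay above all others, with PSC 13 only just above PBC 8, and the other PBC livers lay within the control range. Loxl2 rose in PSC livers by 1.502 (SE 0.39, adjusted p = 0.0217). The difference was 0.27 in PBC livers (SE 0.39, adjusted p = 0.704) and -1.23 between PBC and PSC livers (SE 0.41, adjusted p = 0.142). The PSC call was lost without PSC 11 (adjusted p = 0.0781), without PSC 14 (adjusted p = 0.119) and with libraries scaled to equal totals (adjusted p = 0.0516). The authors' model for Loxl2 spans 304.6 kb (chr14:69391201-69695834), where GENCODE gives the gene 86.8 kb, and it covers 13 other annotated genes, so its reads may hold some from these.

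Lox, the founding member of the family, was near the lower limit of what these libraries measure. It had 9.95, 31.9 and 10.6 normalised reads in PBC livers, 19.7, 27.5 and 24.7 in PSC livers, and 18.1, 2.57, 0 and 5.55 in control livers. These are 4, 20 and 5 reads in PBC livers, 21, 17 and 15 in PSC livers, and 14, 2, 0 and 4 in control livers. In control 3, the shallowest library, 0 reads allow a value of up to 7.66. The PSC livers lay above the control livers, control 1 by a small margin, and the PBC livers overlapped both. The log2 difference was 2.43 in PSC livers (SE 0.88, adjusted p = 0.0788), 1.81 in PBC livers (SE 0.88, adjusted p = 0.209) and -0.62 between PBC and PSC livers (SE 0.94, adjusted p = 0.747). These differences moved by more than 1.5-fold with several choices. In PSC livers the difference was 1.55 with a pseudocount of 5 in place of 1, 1.70 with edgeR, 1.76 with DESeq2, 1.21 with quality weights, 1.69 without control 3, and 3.11 without control 1, which alone brought the adjusted p under the threshold (0.0375). In PBC livers it was 1.06 with a pseudocount of 5, 0.19 with quality weights, 1.07 without control 3 and 2.49 without control 1. The model for Lox on chromosome 18 spans 329.4 kb, where GENCODE gives the gene 13.8 kb, and it covers Srfbp1, which has a model of its own with 375 to 516 normalised reads in the 10 livers and was not called.

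Of 19 other tested genes for collagen crosslinking and processing, 6 rose in PSC livers and 2 in PBC livers, and none fell in either, with a median log2 change of 0.52 in PSC livers and 0.43 in PBC livers. Tgm2, a transglutaminase that links proteins through glutamine and lysine, rose by 1.61 in PBC livers (SE 0.22, adjusted p = 0.000713) and by 1.74 in PSC livers (SE 0.22, adjusted p = 0.000331). Plod3, a lysyl hydroxylase, rose by 0.74 in PBC livers (SE 0.21, adjusted p = 0.0372) and differed by 0.54 in PSC livers (SE 0.21, adjusted p = 0.092). Serpinh1, the collagen chaperone HSP47, had 945, 1154 and 649.6 normalised reads in PBC livers, 1936, 2268 and 3300 in PSC livers, and 1207, 567, 894 and 1058 in control livers. It rose in PSC livers by 1.44 (SE 0.29, adjusted p = 0.00601) and was lower in PBC than in PSC livers by a log2 difference of -1.45 (SE 0.31, adjusted p = 0.0275). Adamts2 and Pcolce, which cut procollagen and enhance that cutting, both rose in PSC livers, Adamts2 by 1.69 (SE 0.28, adjusted p = 0.00209) and Pcolce by 1.19 (SE 0.20, adjusted p = 0.00229). In PBC livers Adamts2 differed by 0.50 (SE 0.28, adjusted p = 0.281) and Pcolce by 0.66 (SE 0.20, adjusted p = 0.0544), the latter just over the threshold. Neither was called between PBC and PSC livers.

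The fibrillar collagens are the substrate of these enzymes. Of 6 tested, 6 rose in PSC livers with a median log2 change of 3.59, 5 rose in PBC livers with a median of 1.63, and 4 were lower in PBC than in PSC livers. Col1a1 had 1920.0, 668 and 649.6 normalised reads in PBC livers, 4793, 4542 and 6053 in PSC livers, and 279.8, 105, 86.8 and 125 in control livers, and it rose by 2.80 in PBC livers (SE 0.42, adjusted p = 0.00112) and by 5.24 in PSC livers (SE 0.42, adjusted p = 6.56e-06). The others that rose in PBC livers were Col1a2, Col3a1, Col5a2 and Col5a3. There were 0.187, 0.339 and 0.222 Loxl1 reads per Col1a1 read in PBC livers, 0.0791, 0.124 and 0.0744 in PSC livers, and 0.579, 0.610, 0.529 and 0.622 in control livers. The 3 groups did not overlap, with control livers highest and PSC livers lowest. The log2 difference of the ratio was -1.28 in PBC livers and -2.70 in PSC livers (exact permutation test, each p = 0.0571, adjusted p = 0.171), and 1.42 between PBC and PSC livers (exact permutation test, p = 0.1, adjusted p = 0.196). Loxl1 per Loxl2, the last ratio examined, overlapped between all groups.

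**Figure D4:**
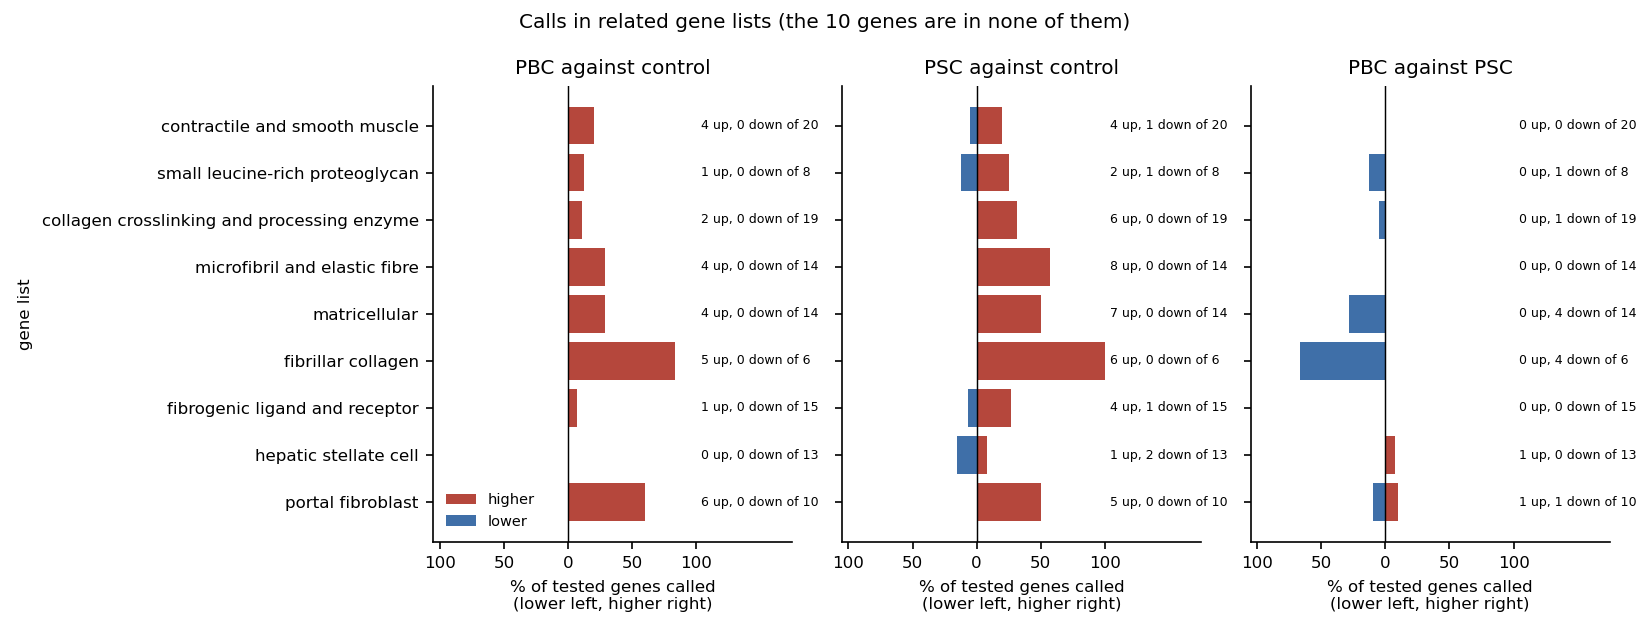
Share of the tested genes of 9 related lists (y axis) that were called higher (to the right) or lower (to the left), in percent, in PBC against control, PSC against control and PBC against PSC livers, with the counts beside each bar. The 10 genes are in none of the lists. Fibrillar collagen has the highest share in both models, with 5 and 6 of 6 genes called higher.

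Ordered per length of exon sequence, the same 3 genes led and the same 3 were lowest in all 3 groups. Dcn had the highest mean, with 2094, 2327 and 2183 normalised reads per kb of exons in PBC, PSC and control livers. Tagln followed with 816, 2286 and 904, and Lum with 370.4, 1194 and 449.8. Acta2 had 152, 369.9 and 71.9, Postn 90.2, 123 and 73.4, Loxl1 73.6, 141 and 26.5, and Thbs2 44.9, 116 and 28.3 normalised reads per kb in PBC, PSC and control livers. The lowest were Loxl2 with 13.4, 30.2 and 10.6, Fbn1 with 5.5, 11.9 and 3.52, and Lox with 3.66, 5.01 and 1.37. Some neighbours in this order differed by less than the SD of either gene between livers. In PBC livers these were Postn and Loxl1, and Fbn1 and Lox. In PSC livers they were Dcn and Tagln, Loxl1 and Postn, and Postn and Thbs2, and in control livers Postn and Acta2, and Thbs2 and Loxl1.

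The livers of a group did not rank the same way for all 10 genes. PBC 7 was the highest PBC liver for Acta2, Tagln, Thbs2, Fbn1 and Loxl1, and PBC 8 for Lum, Dcn, Postn, Lox and Loxl2, while PBC 9 was the lowest for 8. In PSC livers 14 was the highest for 7 genes, and 13 for Thbs2, Lox and Loxl1. Control 3, the shallowest library, was the highest control for Acta2, Tagln, Thbs2 and Fbn1 and the lowest for Postn, Lox, Loxl1 and Loxl2. The 6 mesothelial markers, among them Msln and Upk3b, which mark the cells that cover the liver, summed to 778, 1303 and 372 normalised reads in PBC livers, 243, 697 and 531 in PSC livers, and 861, 285.0, 687 and 461 in control livers. PBC 8 was the highest of all 10 livers for this sum, and none of the 6 was called in any comparison or at 0 in any library. The part of mesothelial cells in the Lum, Dcn and Postn values was not tested.

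The markers of the cells that can become myofibroblasts did not move as 1 group. Of 10 tested portal fibroblast markers, 6 rose in PBC livers and 5 in PSC livers, and none fell in either. Thy1 had 748.5, 742.5 and 700.4 normalised reads in PBC livers, 334, 249 and 278 in PSC livers, and 224, 221, 222 and 183 in control livers. It rose in PBC livers by 1.78 (SE 0.21, adjusted p = 0.000225), was not called in PSC livers (0.42, SE 0.21, adjusted p = 0.184), and was higher in PBC than in PSC livers (1.36, SE 0.22, adjusted p = 0.00654). T cells also make Thy1. Pi16, a marker of adventitial fibroblasts, rose by 3.00 in PBC livers (SE 0.50, adjusted p = 0.00237) and by 2.48 in PSC livers (SE 0.50, adjusted p = 0.00608). Its normalised reads were 49.7, 43.0 and 74.1 in PBC, 33.8, 45.3 and 34.5 in PSC, and 5.18, 7.70, 10.2 and 2.78 in control livers. The Pi16 control values are a few reads per library, so the size of its rise is uncertain. Dpt, dermatopontin, rose by 1.85 in PSC livers (SE 0.31, adjusted p = 0.00219) and differed by 0.03 in PBC livers (SE 0.31, adjusted p = 0.97). The 12 portal fibroblast markers summed to between 24527 and 37775 normalised reads in PBC livers, 26204 and 27974 in PSC livers, and 9443 and 18459 in control livers, with Gli1 and Slit2 at 0 in some livers. Gas6 alone makes up most of this sum in every liver.

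Of 13 stellate cell markers, none was called in PBC livers, and 1 rose and 2 fell in PSC livers. Cygb, cytoglobin, rose by 0.95 in PSC livers (SE 0.24, adjusted p = 0.0187), while Vipr1 fell by 2.31 (SE 0.40, adjusted p = 0.00267) and Angptl6 fell by 0.75 (SE 0.21, adjusted p = 0.0298). Vipr1 had 288.5, 1128 and 332 normalised reads in PBC livers, 277, 231 and 143 in PSC livers, and 1249, 1046, 825 and 1083 in control livers. PBC 7 and PBC 9 were below all control livers and PBC 8 was among them, with a log2 difference of -1.12 in PBC livers (SE 0.40, adjusted p = 0.0927). Ecm1 was higher in PBC than in PSC livers (log2 1.47, SE 0.29, adjusted p = 0.0185). The stellate list summed to between 25246 and 28371 normalised reads in PBC livers, 23331 and 23840 in PSC livers, and 22684 and 28407 in control livers, and none was at 0. Of 15 genes for fibrogenic ligands and receptors, Tgfb1 was the 1 gene that rose in PBC livers, by 1.45 (SE 0.21, adjusted p = 0.00102), and it rose by 1.04 in PSC livers (SE 0.21, adjusted p = 0.00652). In PSC livers Pdgfa, Pdgfb and Pdgfrb rose too, and Tgfbr1 fell by 1.89 (SE 0.53, adjusted p = 0.0304). Pdgfrb, the receptor that drives stellate cell division, was up by 1.23 in PSC livers (SE 0.22, adjusted p = 0.00349). In PBC livers Pdgfrb differed by 0.74 (SE 0.22, adjusted p = 0.0519) and Pdgfb by 1.06 (SE 0.33, adjusted p = 0.0561), both just over the threshold. Neither was called between PBC and PSC livers (adjusted p = 0.294 for Pdgfrb and 0.322 for Pdgfb). Tgfbr1 had 104, 473 and 55.0 normalised reads in PBC livers, 76.9, 107 and 98.6 in PSC livers, and 309.6, 438, 309 and 349.9 in control livers. PBC 7 and PBC 9 were below all control livers and PBC 8 above them, with a log2 difference of -1.31 in PBC livers (SE 0.53, adjusted p = 0.13).

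Markers of other liver cells were set beside the 10 genes. Over all tested models 8.25% were called higher and 6.48% lower in PSC livers. In PBC livers these shares were 7.6% and 2.34%. Of 8 cholangiocyte markers, 6 rose in PSC livers and 3 in PBC livers, with Krt19 up by 2.11 in PSC livers (SE 0.33, adjusted p = 0.00139) and by 1.13 in PBC livers (SE 0.33, adjusted p = 0.046). Of 6 macrophage and leukocyte markers, 3 rose in PSC livers and 5 in PBC livers, with Cd68 up by 1.83 in PSC livers (SE 0.26, adjusted p = 0.000815) and by 1.74 in PBC livers (SE 0.26, adjusted p = 0.00128). Of 7 endothelial markers 1 rose in PBC livers, and 1 rose and 1 fell in PSC livers. Of 6 hepatocyte markers, Cps1 rose in PBC livers by 0.96 (SE 0.23, adjusted p = 0.0198) and none was called in PSC livers. The 6 summed to between 8321605 and 12278159 normalised reads in PBC, 5401970 and 6516926 in PSC, and 8103725 and 9398521 in control livers. Every PSC liver thus lay below every control liver for this sum, most of which is Alb. The median log2 change of the 6 in PSC livers was -0.11. The part of these cells in the values of the 10 genes was not tested.

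For each of the 7 genes called at least once, the nearest profiles were sought among 11283 other genes, as the smallest mean absolute difference of log2 values over the 10 livers after each gene was centred on its control mean. Acta2 was nearest to Glipr1 (0.30) and Ifi27l2b (0.34), a gene with a near-identical copy. Tagln was nearest to Afp (0.27) and Pdlim2 (0.28), and Lum to Sparc (0.20) and the noncoding Airn (0.23), whose reads may be shared with the gene on the other strand. Thbs2 was nearest to Tmem119 (0.20) and Gpr137b (0.22), Fbn1 to Hspb2 (0.21) and Mmp23 (0.25), Loxl1 to Ccdc80 (0.34) and Plpp7 (0.37), and Loxl2 to Tmem132a (0.19) and Nid1 (0.23). Tmem119 had 214, 164 and 197 normalised reads in PBC livers, 463, 485 and 463 in PSC livers, and 129.5, 74.4, 107 and 117 in control livers, in the same order of groups as Thbs2. These distances are a description over 10 livers and carry no test.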

How the data were processed

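Liver RNA of 3 PBC, 3 PSC and 4 control mice was measured by stranded poly(A) sequencing. Per the submitters' processing notes, STAR 2.4.0, the build mm10, SAMtools, Picard, FastQC and DESeq2 were used, while no source used here gives the counting tool or its use of strand. The deposited values are a signal, read counts of each gene model that the authors scaled with DESeq2. In each library 100% of low values were whole multiples of 1 step (tolerance 0.1, steps between 0.938 and 2.555), so reads were recovered by division. On average 2263 models had 2 reads and 573 had 1, so each mate seems to count as 1 read, and limits from read counts cover counting error only and are too narrow.

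Models that reached 10 in 3 or more libraries, 18390 in all, were tested with limma 3.58.1 (R 4.3.3) with an intensity trend on log2(value + 1), all 10 libraries in 1 fit, with Benjamini-Hochberg adjustment at 0.05. Tested on simulated reads of 18390 genes for PSC against control, it found 12% of 100 changes of 2-fold and 68% of 100 changes of 4-fold, with 1 false call. Only these 200 genes changed in the simulation, while 2710 were called in the data. The adjustment was therefore stricter in the simulation, and its shares do not carry over to the data. On the recovered reads, edgeR 4.0.16 (quasi-likelihood) called 1225 genes higher and 345 lower in PBC against control, 1436 and 1176 in PSC against control, and 203 and 213 in PBC against PSC. Other alternatives were DESeq2 1.42.0, TMM scaling, equal totals, pseudocounts of 0.5 and 5, no filter, a stricter filter of 50, only the compared groups, quality weights per library, and leaving out each library in turn.

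The 10 genes and the 14 related lists were chosen with earlier results of these data known. From each list, up to 4 called genes with the smallest adjusted p per comparison were eligible to be named, with any called against the list's majority. Genes that complete a count of 5 or fewer (Tpm1, Col3a1, Pdgfa) were named after their values were seen. Exon lengths are from GENCODE M21, and promoter sequences are RefSeq's (GRCm38.p6). p-values rest on the spread between mice.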

Additional observations from a re-analysis of the deposited data

Results flagged for a closer look

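For 2 of the 10 genes the PBC and PSC effects differed by a test of the difference itself. Lum differed between PBC and PSC livers by -1.79 on the log2 scale (SE 0.31, adjusted p = 0.00869 by limma), with values of 783, 1410.0 and 527 normalised reads in PBC livers and 2240, 3261 and 3272 in PSC livers. Thbs2 differed by -1.33 (SE 0.25, adjusted p = 0.0143 by limma), with values of 351, 309 and 283.5 normalised reads in PBC livers and 776, 1040.0 and 615 in PSC livers. All 3 PBC livers lay below all 3 PSC livers for both genes. The Lum call was lost without PSC 13 (adjusted p = 0.055) or PSC 14 (adjusted p = 0.0631), and the Thbs2 call without PSC 11 (adjusted p = 0.053) or PSC 13 (adjusted p = 0.101). On the scale of normalised reads no control liver stood apart for any of the 10 genes by Dixon's test, while groups of 3 livers were not examined. The nearest was Thbs2 in control 2, with a gap of 0.828 of the range, just under the critical value, and on the log2(value + 1) scale, examined after the values were seen, it was 0.846, above the critical value.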

How the results depend on the processing

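Of 597 values of the 10 genes under alternatives, 551 kept their direction and side of the threshold, 21 lost a call, 14 gained one and 11 reversed. Acta2, Lum, Thbs2 and Loxl1 kept their PSC call under all 20 alternatives each. Loxl1 lost its PBC call with equal totals (adjusted p = 0.0707), with only the compared groups (0.0777), with quality weights (0.121), and without control 2, control 3, control 4, PBC 7 or PSC 14 (0.0506 to 0.138). Fbn1 lost its PSC call without PSC 14 (adjusted p = 0.0509).

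No called value reversed. In PBC against control, Tagln lay between -0.39 and 0.31 with 1 library left out, above 0 without control 1, control 3, PBC 8 or PBC 9. Dcn lay between -0.45 and 0.12, above 0 without PBC 9. Postn lay between -0.026 and 0.44 and Loxl2 between -0.10 and 0.56, both below 0 without PBC 8, and quality weights gave -0.06 for each. Dcn reversed to -0.01 in PSC livers with quality weights, and between PBC and PSC livers it lay between -0.57 and 0.001, reversed without PBC 9. The cause was not tested.

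Of the 10 genes, those higher in PBC livers numbered 1, but 0 with equal totals, 0 with only the compared groups, 2 with DESeq2 and 0 to 1 when 1 library was left out. Those lower in PBC livers numbered 0, and 1 with quality weights, or 0 to 1 with 1 library left out. Those higher in PSC livers numbered 7, and 4 to 8 with 1 library left out, the lowest without PSC 14. Those lower in PBC than in PSC livers numbered 2, but 4 with DESeq2, 4 with quality weights and 0 to 3 with 1 library left out, the lowest without PSC 13. Over all tested models DESeq2 called 623 lower and quality weights 701, beside 208 in the main fit.

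Called genes in PBC against control numbered 1828, but 1217 with equal totals, 872 with only the compared groups, 4228 with quality weights and 736 to 3364 with 1 library left out, lowest without PBC 9 and highest without PBC 8. In PSC against control they numbered 2710, but 7303 with quality weights and 925 to 3813 with 1 library left out, lowest without PSC 14 and highest without PBC 8. In PBC against PSC they numbered 412, but 1213 with DESeq2, 1359 with quality weights and 104 to 563 with 1 library left out, lowest without PSC 14 and highest without control 3. Equal totals moved the median of all genes by -0.12 in PBC against control and split the calls of PBC against PSC into 128 higher and 227 lower, beside 204 and 208. DESeq2 split those of PBC against control into 1665 and 913, beside 1398 and 430. No paired analysis was possible because the mouse numbers do not repeat across groups. In the simulation of PSC against control, where only 200 genes changed, most 2-fold changes were missed, and the other comparisons were not simulated. Lox rests on at most 21 reads a library.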
